A study of Saccharomyces cerevisiae BY4741 with 25 samples.

Results

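The data described here are the sequence variants that were called in the pooled mutant clones named RRC6 and were missing from the list of the parental strains. A call was taken as RRC6-specific when the RRC6 list held it with at least 10 reads and the parental list held no call with the same chromosome, position, reference allele and alternate allele. This left 153 calls of the 337 in the RRC6 list with at least 10 reads, and the other 184 were also parental calls. In all 9 deposited lists together there were 3606 calls with at least 10 reads.

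The study screened budding yeast for mutants in which SIR2 is derepressed, and sequenced genomic DNA of 8 mutant pools and 1 parental pool on a MiSeq instrument. The RRC6 pool carries the strain name YTT66_a296A. Per the labels, it was a mixture of MATa and MAT alpha mutant clones in the BY4741 background, raised from ascospores of a backcross, grown one by one in YPD to stationary phase and combined at harvest. The parental pool was a mixture of the strains YTT66 (the strain named in the RRC6 label) and YTT67, of both mating types, also in the BY4741 background and at stationary phase. Each pool was 1 library, so a value describes that library. The sources used here do not give the number of clones in the pool, the mutagen or the alleles carried by YTT66 and YTT67, and no gene is named in the RRC6 label.

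Sir2 is a histone deacetylase that silences chromatin at the yeast ribosomal DNA repeats, the telomeres and the silent mating loci, and it restrains recombination between rDNA repeats. When spores of a backcross are selected for a phenotype and pooled, the allele that gives the phenotype is carried by all selected clones, whereas an unlinked allele of the mutant parent is inherited by only part of them. The share of reads with the alternate allele at each call is therefore the quantity of interest in such a pool.

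The alleles of 3 of the calls described first are shown as deposited, because they set the IES1 deletion beside 2 length changes whose listed alleles are repeats. This form does not set IES1 apart. Near-fixed deletions in ALT2 and at position 405084 of chromosome 7, described below, also have short listed alleles. The same calls were made in 7 and 2 other mutant lists. Capitals mark the bases lost from the reference allele or gained in the alternate allele. The letters stand in the orientation of the deposited lists, which do not name the genome build.
IES1 reference, chromosome 6, position 108843: tC
IES1 alternate: t
LEU2 upstream reference, chromosome 3, position 91287: aatatatatatatatAT
LEU2 upstream alternate: aatatatatatatat
ASG1 reference, chromosome 9, position 105433: aaataataat
ASG1 alternate: aaataataatAAT

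RRC6 was read less deeply than the parental pool. At the 181 calls that both lists held with at least 10 reads, the median was 37 reads in RRC6 and 62 reads in the parental pool, and RRC6 had fewer reads at 173 of them. Calls with fewer than 10 reads made up 28.6% of the RRC6 list, 12.3% to 24.0% of the other 7 mutant lists and 18.8% of the parental list. The RRC6-specific calls had a median of 22 reads, with a range of 10 to 123. At 22 reads, a share of 50% has an exact 95% interval of 28.2% to 71.8%, and only shares of 77.3% or more, or 22.7% or less, passed the test against 50% used here. At 10 reads there were 6 RRC6-specific calls, with shares of 30% to 40%, and at 9 reads, just outside the minimum, 12 non-parental calls had shares of 33% to 100%. Intervals and tests cover counting error only, since reads amplified by PCR are not independent molecules.

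Each share was set against 50% with a two-sided exact binomial test, adjusted by the Benjamini-Hochberg method over all 337 RRC6 calls, and calls with an adjusted p under 0.05 and 90% or more alternate reads were named near-fixed. Of the 153 RRC6-specific calls, 22 were near-fixed, against 48.7% of all 337 RRC6 calls and 56.5% of the 363 parental calls with at least 10 reads. Another 49 lay below 50% with an adjusted p under 0.05, against 17.5% of all RRC6 calls and 22.3% of the parental calls. The remaining 82 met neither rule. The shares ran from 14% to 100% with a median of 28%.

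**Figure D1:**
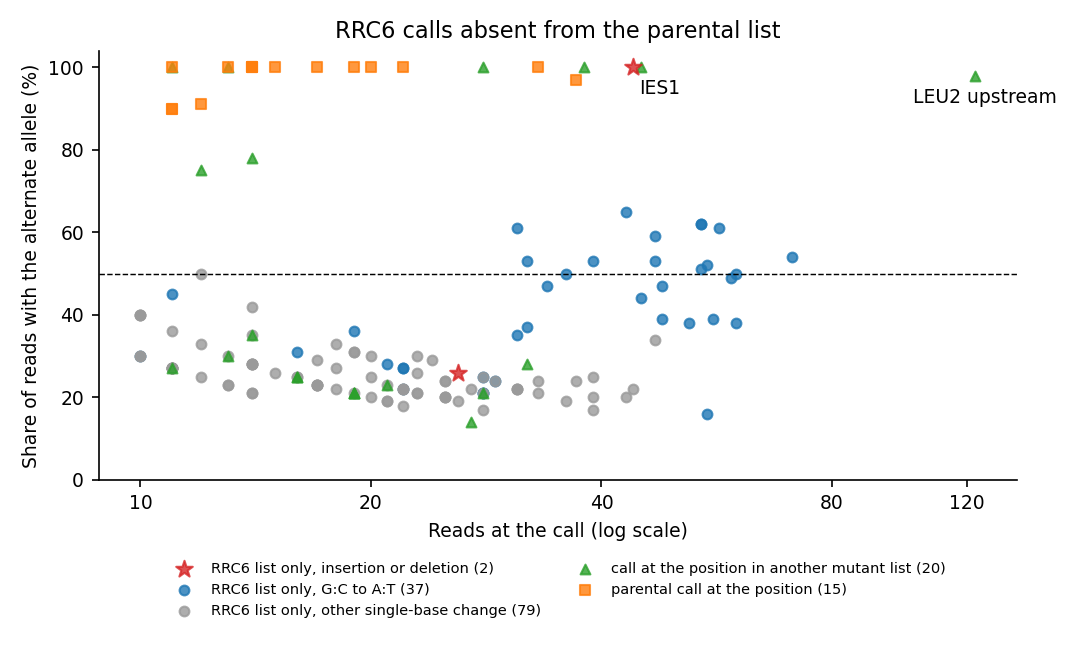
Share of reads with the alternate allele, in percent, against the number of reads at the call on a log scale, for the 153 RRC6-specific calls, coloured by where else a call was listed. The IES1 deletion is the call found in the RRC6 list only that lies at 100%, while the other calls found in that list only reach at most 65%.

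The one near-fixed call at a position that no other list called was a frameshift in IES1 (YFL013C), a subunit of the INO80 chromatin remodelling complex, which moves and positions nucleosomes. At position 108843 of chromosome 6, 44 of 44 RRC6 reads lacked 1 base in codon 363, a share of 100% with an exact 95% interval of 92.0% to 100%. The score of the call was 214 and its adjusted p in the exact binomial test was 6.72e-13. None of the other 8 lists, the parental one included, held any call within IES1. The reading frame of IES1 has 692 codons in the RefSeq table of assembly R64, so 329 codons follow the shifted one and the shift begins 52.5% of the way along the protein.

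Other RRC6-specific calls also lay on chromosome 6, and their number was not set against that on other chromosomes. The nearest was 11.0 kb away, at position 97864 between GAT1 and PAU5, where 10 of 11 reads, 90%, carried a longer run of T. The parental list had a call at that same position, with a partly different set of alternate alleles. The other 2 were missense calls 117 kb away in the open reading frames YFR034W-A (A37E, 27% of 11 reads, score 3.01) and YFR035C (C86G, 23% of 17 reads, score 9.52). The A37E call was also annotated as C112F in YFR035C, and the C86G call as synonymous in YFR034W-A (T63).

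The INO80 list of 15 complex subunits and the lists of rDNA transcription and silencing genes were searched for RRC6-specific calls. Across the genome, 61 of the 6021 protein-coding genes of the R64 table, 1.01%, were named in the main annotation of an RRC6-specific call. Genes named only in a second annotation, such as SSA1, and the neighbours of intergenic calls are not counted, so this rate is a lower bound. A list of this size holds few or none at that rate, and nothing is read from these counts. IES1 was the single INO80 gene hit, 1 of 15. No call lay in or was assigned to any of the 8 genes of the upstream activating factor of RNA polymerase I, the 5 genes of core factor, TBP and Rrn3, the 14 RNA polymerase I genes, the 22 genes of silencing and rDNA stability or the 26 genes of a list of other chromatin factors. That list does not hold every chromatin gene, and RSC30, described further on, is not in it. Calls annotated as intergenic stood next to 2 genes of these lists. One lay between RRN10 and NCL1 on chromosome 2 (position 172381, 24% of 37 reads, score 18.1), and one between RRN11 and CAT2 on chromosome 13 (position 191982, 27% of 22 reads, score 13.2).

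The other 21 near-fixed calls were also represented in other lists. At 15 of them the parental list had a call at the same position that shared at least 1 alternate allele and differed in how the alleles were written or in an additional allele. Their shares were 90% to 100% of 11 to 37 reads in RRC6, against 93% to 100% of 17 to 66 reads in the parental pool. These 15 include 8 of the protein-changing calls. ALT2, a paralog of alanine transaminase, had a frameshift deletion of 2 bases (KW489) in 14 of 14 reads. The subtelomeric gene COS5 had P50R in 19 of 19 reads. Some of the 15 calls list more than 1 alternate allele, and the deposited percent is then given for the call and not for each allele. The mitochondrial carrier gene MTM1 had 22 of 22 alternate reads at such a call, for which R343G and R343S were both listed, and R343G was also the parental change. The remaining 5 all had more than 1 alternate allele. In YAL004W, S91T and S91P were listed at 1 call, and R126G and R126W at the other. YBL100W-B had A242P and A242S, YBL005W-B had P325Q and P325R, and YHL041W had a frameshift. Of these changes, S91T, R126W, A242S and P325R were also parental. Both YAL004W calls were also annotated as synonymous in a second gene, SSA1 (G134 and P99). Synonymous calls among the 15 lay in FLO9 (T818 and T819), NUM1 (A668) and YBL005W-B (P325), and the last 3 were length changes in A or T runs, 1 upstream of YIL161W and 2 intergenic.

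At 4 further near-fixed calls, the parental list had an insertion or deletion of the same net length within 5 bases that did not give the same sequence when written out. The serine tRNA gene tS_AGA_D3 lacked 1 base in 45 of 45 RRC6 reads (adjusted p 3.68e-13, exact binomial test), and in 100% of 53 to 74 reads in the other 7 mutant pools. The parental list had a loss of 1 base 3 positions away in 100% of 60 reads. ASG1, which encodes a zinc-cluster transcription regulator, had the in-frame gain of 3 bases shown above (D888ND) in 38 of 38 RRC6 reads (adjusted p 3.50e-11, exact binomial test). The same call was made in 6 other mutant lists, and the parental list had a gain of 3 bases 3 positions away in 88% of 44 reads. The other 2 were intergenic, at position 405084 of chromosome 7 (28 of 28 reads) and 465172 of chromosome 11 (13 of 13 reads).

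For the last 2 near-fixed calls no parental call lay within 5 bases. One was the loss of an AT unit 22 bases upstream of LEU2, a leucine biosynthesis gene, in 121 of 123 RRC6 reads, a share of 98% (adjusted p 6.04e-32, exact binomial test). The same call had shares of 98% to 100% of 145 to 174 reads in 5 other mutant pools. Its 123 reads were the most at any RRC6-specific call. Shared synonymous calls within LEU2 had 745 to 1154 reads in RRC6 and 1049 to 1292 in the parental pool. The medians over all shared calls were 37 and 62 reads, and the cause of the high depth at LEU2 was not tested. The other near-fixed call was a longer run of T at position 1518948 of chromosome 4, in 11 of 11 reads with a score of 5.08. Another allele was called at this position in RRC2, with a share of 86% of 36 reads.

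Of the 153 RRC6-specific calls, 118 lay at positions that no other list called, 20 lay at positions called in at least 1 other mutant list and 15 were the calls with a parental call at the position. The 118 comprised 116 single-base changes and 2 deletions, the second deletion being downstream of YEL020C in 26% of 26 reads. G:C to A:T changes numbered 37 of the 116 (31.9%, exact 95% interval 23.6% to 41.2%) and A:T to C:G changes 36 (31.0%, 22.8% to 40.3%). G:C to T:A changes numbered 23, A:T to T:A changes 15 and A:T to G:C changes 5. No G:C to C:G change was found, for which the exact 95% upper limit is 3.13%. Among the RRC6 calls that were also parental, A:T to C:G made up 12 of 156 single-base calls (7.69%, 4.04% to 13.1%). Among all RRC6-specific single-base calls it made up 37 of 133 (27.8%, 20.4% to 36.3%). G:C to A:T made up similar parts of both sets, 45 of the 156 (28.8%, 21.9% to 36.6%) and 41 of the 133 (30.8%, 23.1% to 39.4%).

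The 37 G:C to A:T changes had a median share of 44% (16% to 65%), a median of 39 reads and a median score of 152. The other 79 had a median share of 24% (17% to 50%), a median of 19 reads and a median score of 6.98. The other 79 rested on a median of 5 alternate reads, with a range of 3 to 16, against a median of 19 for G:C to A:T. Of these 79 calls, 35 were below 50% with an adjusted p under 0.05 in the exact binomial test. What part the depth and score of a call have in its share was not tested.

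**Figure D2:**
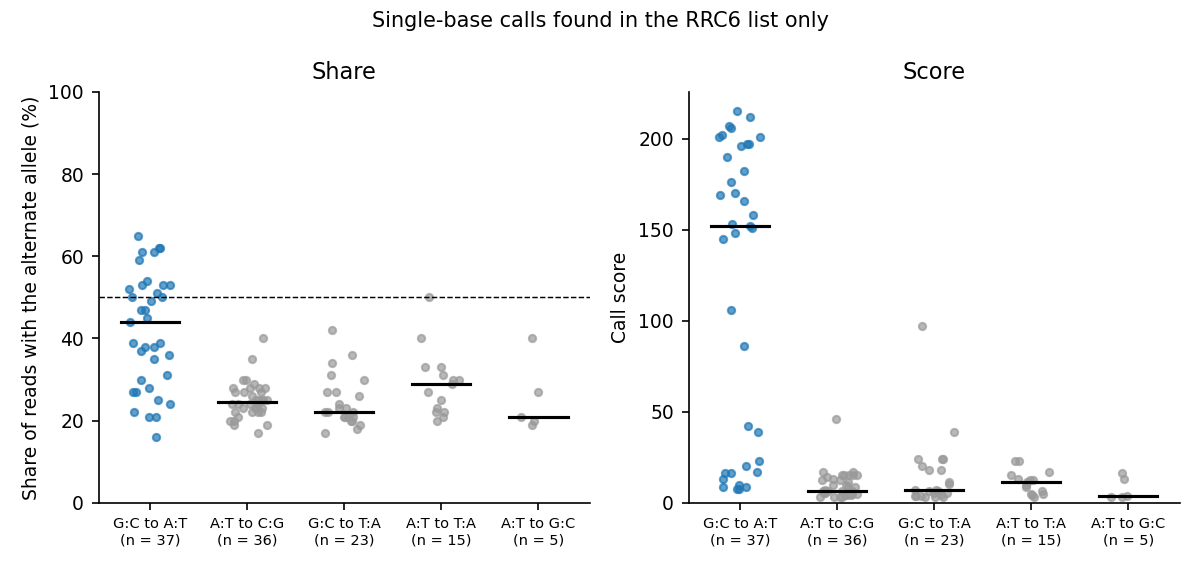
Share of reads with the alternate allele, in percent, and call score for the 116 single-base calls found in the RRC6 list only, with 1 point per call, grouped by base change. The G:C to A:T calls reach a share of 65% and a score of 215, while A:T to C:G calls stay at 40% or less with scores of at most 46.

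Scores of G:C to A:T changes left a gap between 42 and 86, so they were also described above and below a score of 50, a division chosen after the values were seen. The 24 calls above it had shares of 35% to 65%, with a mean of 50.0% ± 9.00 (SD over calls). Counting error alone gives an SD of 7.45 percentage points at their depths of 31 to 71 reads. They lay on 11 chromosomes and rested on 11 to 39 alternate reads, against 3 to 9 for the calls under the score of 50. The division by score thus also removed the calls with few alternate reads and low shares, so the closeness of the 24 to 50% is in part set by it and is given as a description. The 13 calls under the score of 50 had a mean share of 27.2% ± 7.43 (SD over calls) and a median of 22 reads, and 6 of them lay below 50% with an adjusted p under 0.05.

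Of the 24 calls, 5 changed a protein. YPK3, a kinase of the AGC family that phosphorylates ribosomal protein S6, had a stop codon at W449* in 21 of 39 reads, 53% (exact 95% interval 37.2% to 69.9%). GPB2, a kelch-repeat regulator of cyclic AMP-dependent protein kinase signalling, had R455K in 28 of 47 reads, 59% (44.3% to 73.6%). ECM32, which encodes a DNA helicase, had R25K in 29 of 59 reads, 49% (35.9% to 62.5%). MLP1, a component of the nuclear pore basket, had D1245N in 23 of 60 reads, 38% (26.1% to 51.8%). RPG1, a subunit of translation initiation factor eIF3, had G919D in 11 of 31 reads, 35% (19.2% to 54.6%). None of the 5 intervals reaches 90%.

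Another 8 of the 24 were synonymous. SLD2, which acts in the initiation of DNA replication, had the call at A146 in 61% of 57 reads, and SIP2, a subunit of the Snf1 kinase complex, at L51 in 61% of 31 reads. SNU114, a GTPase of the spliceosome, had K146 in 53% of 47 reads, and BIO3, of biotin synthesis, had K152 in 51% of 54 reads. The aldehyde dehydrogenase gene ALD5 had G446 in 47% of 48 reads, and NOT5, of the CCR4-NOT complex, had Q252 in 47% of 34 reads. RAX2, of bud site selection, had S1137 in 44% of 45 reads, and the proteasome subunit gene RPN13 had S80 in 38% of 52 reads. The shares of these 8 ran from 38% to 61%, and those of the 5 protein-changing calls from 35% to 59%.

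The other 11 of the 24 lay outside coding sequence. The calls upstream of YGL152C and downstream of SPO77, a sporulation gene, both had 34 of 54 reads, 62%. Downstream of FIR1 the share was 39% of 48 reads, and downstream of TMA22 it was 37% of 32 reads. Among the 7 intergenic calls the highest share was 65% of 43 reads, at position 389055 of chromosome 15 between DFG16 and CRS5. The call with the highest score, 215, was at position 563354 of chromosome 5 between YER186C and YER187W, with 54% of 71 reads. The lowest of the 7 was 39% of 56 reads, at position 222032 of chromosome 4 between RPL41B and SRF1.

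The reference base at these 24 calls was not mixed along chromosomes. Counted on the strand of the deposited lists, it was G at 19 and C at 5. On the 6 chromosomes with at least 2 of the calls, all 19 calls there shared the letter of their chromosome, G on chromosomes 1, 5, 11 and 12 and C on chromosomes 2 and 7. In the other 7 mutant lists, counted the same way, 87.9% to 97.3% of such calls had the commoner letter of their chromosome. Under the score of 50, 8 G:C to A:T calls out of 13 lay on 4 chromosomes with 2 calls each, and 7 had the commoner letter. With 2 calls, at least 1 has that letter by definition, so this count cannot show whether letters were mixed. On chromosomes 12, 15 and 16 the low-scoring call was C and higher-scoring calls were G. On chromosomes 4, 7 and 11 the letters matched, and chromosome 5 held 1 low-scoring call of each letter. No chance level was computed for any of these counts. They are descriptions, since calls on 1 chromosome are not independent.

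Apart from IES1 and the 5 calls above, 16 protein-changing calls were found in the RRC6 list only. RPN1, a proteasome subunit, had a G:C to A:T change giving V462M in 25% of 28 reads, with a score of 42. The other 15 were A:T to C:G or G:C to T:A changes with shares of 17% to 42%, scores of 3.01 to 46 and 3 to 10 alternate reads each. Named genes among them were YAT1, a carnitine acetyltransferase (V317G, 23% of 21 reads), UME6, a regulator of meiotic genes (A832E, 19% of 26 reads), and RPP1, of RNase P and RNase MRP (C221G, 24% of 25 reads). RSC30, of the RSC chromatin remodelling complex, had V594G in 40% of 10 reads, and the ubiquitin ligase gene UFD4 had S136R in 17% of 39 reads. The remaining 10 calls lay in open reading frames with a systematic name only. They were YEL077C (M403L and V231G), YER084W, YER189W, YFR034W-A, YFR035C, YGL149W, YLR296W, YMR086C-A and YPR202W. All of these 16 shares lie below those of the 24 higher-scoring G:C to A:T calls or overlap their lower end.

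Silent and flanking calls made up the rest. ERG11, of ergosterol synthesis, had a synonymous G:C to A:T call at K176 in 16% of 55 reads, the lowest share among the calls found in the RRC6 list only. NUM1 (S778) and ZRT3 (G471) had synonymous calls at 19% of 21 and 19% of 36 reads, and SAR1 had an intronic call at 21% of 28 reads. Downstream of SWI5, a cell-cycle transcription factor gene, a G:C to T:A call had 16 of 47 reads, 34%, and a score of 97, the highest score among the 79 changes other than G:C to A:T. Upstream of YGR161W-B, 3 calls lay within 12 bases of each other, with 25% to 30% of 10 to 12 reads. Single upstream or downstream calls of 17% to 50% were assigned to TRM11, SPC42, AHP1, NRD1, NCP1, HXT17, RRT15, snR161, YBL029W, YBL083C, YHR217C and YNL179C, and 2 to YLR227W-B.

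Intergenic calls were the commonest class, 72 of the 153, with a median share of 27% and a range of 19% to 100%. Of these, 61 were found in the RRC6 list only. At positions 459403, 459465 and 459501 of chromosome 12, between ETS1-1 and RDN5-1 of the rDNA in the R64 gene table, 3 calls had shares of 28%, 27% and 28% of 14, 11 and 14 reads, with scores of 3.01 to 8.64. The rDNA is an array of near-identical repeats, so reads from different copies cannot be told apart there.

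Among the 20 calls at positions that another mutant list called, the 6 near-fixed ones are given above. FLO9, a flocculin gene with internal repeats, had T809 in 11 of 14 reads, 78%, and T803 in 9 of 12 reads, 75%, neither of which differed from 50% after adjustment. The other 12 had shares of 14% to 35% and scores of 3.8 to 27. They included a missense call in YDR509W (T94K, 21% of 19 reads), a synonymous call in FLO1, and calls flanking NTG1, PAB1, RIB2 and BEM4. FLO9 and FLO1 are near-identical in part, so the placement of reads between them is uncertain.

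Calls at positions that no other list called numbered 118 in RRC6, 65 to 203 in the other 7 mutant lists and 32 in the parental list. G:C to A:T changes among them numbered 37 in RRC6 and 50 to 173 in the other mutant lists. With a score of at least 50 the numbers were 24 and 45 to 164. A:T to C:G changes numbered 36 in RRC6 and 0 to 13 in the other mutant lists, and A:T to T:A changes 15 and 1 to 9. The other classes lay within the range of the other lists, with G:C to T:A at 23 in RRC6 and 3 to 24 in the others, A:T to G:C at 5 and 2 to 12, and insertions or deletions at 2 and 1 to 22. Single-base changes other than G:C to A:T numbered 79 in RRC6 and 12 to 59 in the others. The highest of these was RRC3, which also had the 24 G:C to T:A changes. Its median depth over all calls, 25.5 reads, was the second lowest. At calls with a score of at least 200, however, RRC3 and RRC8 both had a median of 60 reads. They had 59 and 12 single-base changes other than G:C to A:T, respectively. Protein-changing calls numbered 22 in RRC6 and 26 to 99 in the others. RRC6 had the lowest depth of the 8 mutant libraries, with a median of 44 reads at calls with a score of at least 200, against 60 to 71 in the other 7 and 61 in the parental pool. The part of depth in these counts was not tested.

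**Figure D3:**
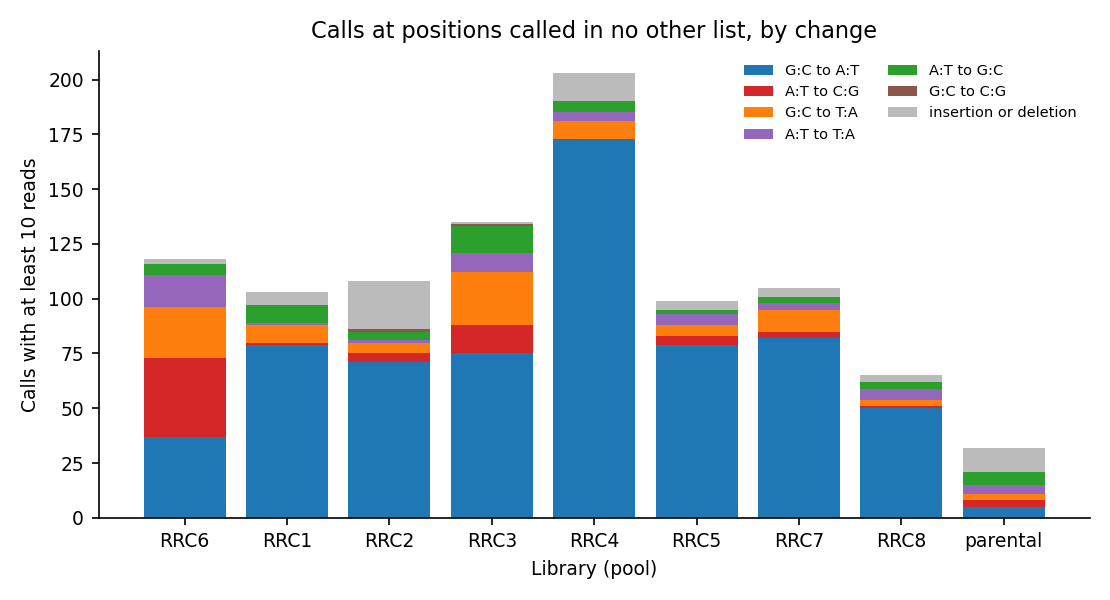
Number of calls with at least 10 reads at positions called in no other list, for each library, by base change. RRC6 has 37 G:C to A:T and 36 A:T to C:G calls, while the other mutant lists have 50 to 173 and 0 to 13.

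The 181 calls held by both lists were compared between RRC6 and the parental pool with a two-sided Fisher exact test on alternate and other reads, adjusted by the Benjamini-Hochberg method over all 181. At 139 of them the share was at least 90% in both pools. One call, 0.552% of those tested, was higher in RRC6, and 0.0% were lower, with 5 of 181 at an unadjusted p under 0.05. The test compares 2 libraries, not replicated groups.

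The call that differed was an A:T to C:G change 88 bases upstream of OXR1, an oxidation resistance gene, at position 174955 of chromosome 16. In RRC6 42 of 44 reads, 95% (exact 95% interval 84.5% to 99.4%), carried it, against 34 of 61 parental reads, 55% (42.4% to 68.5%). The adjusted p of the Fisher exact test was 0.000784. In the other 7 mutant pools its share was 39% to 57% of 64 to 74 reads. Of 24 parental calls with a score of at least 200 and a share of 20% to 80%, 15 were in the RRC6 list. Over these 15 calls, shares ran from 26% to 95% in RRC6 with a median of 43%. In the parental pool they ran from 41% to 77% with a median of 48%. Parental calls missing from the RRC6 list have no share in RRC6, so low shares there may be left out. The next highest share in RRC6 was 78% of 745 reads at LEU2, against 77% of 1049 parental reads. After LEU2 came YHL050C, with 72% of 11 reads in RRC6 and 70% of 37 parental reads.

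Of the neighbouring calls on chromosome 16, the nearest shared one was a missense call in POS5, 17 kb away, with 100% of 50 reads in RRC6 and 100% in the parental pool. A shared call in COX10, 50.7 kb away, had 56% of 53 reads in RRC6 and 48% of 68 reads in the parental pool. The nearest RRC6-specific call, at position 166017 between HRR25 and TPK2, had 22% of 27 reads with a score of 8.64. The SAR1 call lay 36.1 kb away and the NOT5 call 516 kb away.

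**Figure D4:**
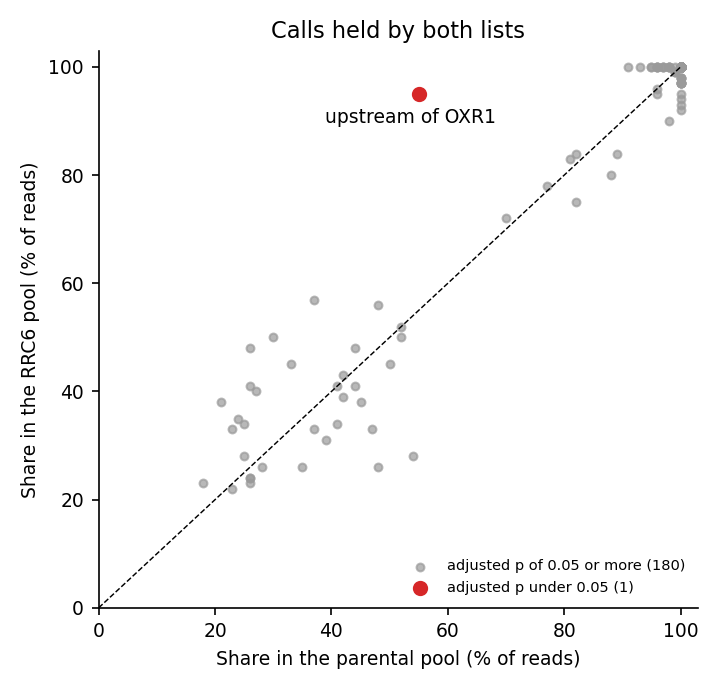
Share of reads with the alternate allele in the RRC6 pool against the share in the parental pool, both in percent, for the 181 calls held by both lists with at least 10 reads in each. The call upstream of OXR1 lies at 95% in RRC6 and 55% in the parental pool, and 139 calls lie at 90% or more in both.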

How the data were processed

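Genomic DNA libraries of the RRC6 pool and the parental pool were compared, with the other 7 mutant pools as context. The files used were the authors' lists of variant calls, 1 for each of 9 libraries of the 25 samples. The 16 immunoprecipitation samples were not analysed here. Per the file headers, each call has a score named MapQ, a count of reads and the percent of them that carry the alternate allele. For some libraries the submitters' processing notes list SAMtools 0.1.19, Bowtie 1.0.0 and MACS2, and for RRC6 they name no tool. The sources used here give neither the variant caller nor its filters or genome build, so filters of the caller at low depth may have removed calls. The parental list gives no depth where it holds no call.

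The deposited percent is rounded down, and alternate reads were recovered as the fewest whole reads giving it. This gave a whole number for every RRC6 call and is exact for up to 100 reads. Above that it is a lower bound. Calls with under 10 reads were left out. Shares were tested against 50% (two-sided exact binomial) and between pools (two-sided Fisher exact), with Benjamini-Hochberg adjustment over all calls tested, and intervals are exact Clopper-Pearson 95% intervals. The members and gene lists were chosen with earlier results of these data known. Genes were named if they held a near-fixed call, a call with a score of 200 or more, a protein-changing call or at least 3 calls, or stood in a gene list. Other genes were named after their values were seen, to account for all calls. Of 71 loci named in the main annotations of the calls, 61 were in the RefSeq table of assembly R64. That table served for names, neighbours and the length of IES1. All 45 coding calls with such a locus lay inside it. Python 3.11.15, NumPy 2.4.6, pandas 2.3.3, SciPy 1.17.1 and matplotlib 3.10.9 were used, and the tests were checked on simulated data. The alternatives were other minima of reads and score, stricter rules of absence from other lists, single-base calls only, other thresholds of near-fixation and the authors' shortened list.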

Additional observations from a re-analysis of the deposited data

How the results depend on the processing

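The number of near-fixed RRC6-specific calls, 22, depended on what counted as absent from the parental list. It was 7 when any parental call at the position, whatever its allele, removed the call, 3 when none within 5 bases was allowed and 6 when the call also had to be absent from the other 7 mutant lists. It was 4 among single-base calls alone. With at least 20 reads there were 86 RRC6-specific calls, 9 of them near-fixed, and 45.3% of the single-base calls were G:C to A:T. With a score of at least 200 there were 13 calls, 6 of them near-fixed, and G:C to A:T made up 100% of the single-base calls, 7 of 7. The minimum of score also removed calls with few alternate reads, so this share is in part set by it. Under the other alternatives these counts stayed within 1.5 times the main value. The IES1 deletion was near-fixed under every alternative that could hold it (a list of single-base calls cannot). With 44 of 44 reads, a score of 214 and no call in another list, its status could not have changed under them. The OXR1 difference was the 1 call of the Fisher exact test under all 5 of its alternatives. No direction reversed. No paired analysis was possible because each group was 1 library. Depth limits all of these counts: at 39 reads, the median for G:C to A:T changes found in the RRC6 list only, a share had to reach 69.2% or fall to 30.8% to pass the test against 50%, and at 22 reads, the median of all RRC6-specific calls, 77.3% or 22.7%. At the parental calls missing from the RRC6 list, 197 in all, the depth of RRC6 is not known.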
